A study of Caenorhabditis elegans with 2 samples.

Results

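The genes described here encode the RNA polymerases of Caenorhabditis elegans and 3 large complexes that work with polymerase II, namely TFIID, Mediator and Integrator. They were chosen by name: protein-coding genes with symbols in rpb-, rpc-, rpoa-, rpac-, mdt-, taf-, ints- or tbp- followed by a number, together with ama-1, let-19, sur-2, dpy-22, cic-1 and cdk-8. The choice gave 76 genes of the 19973 nuclear protein-coding genes of the annotation. The naming rule used no measured value, but the genes were chosen with earlier results of these data known. Binding of the transcription factor APTF-3, a member of the AP-2 family, was mapped by chromatin immunoprecipitation and sequencing (ChIP-seq) in 2 biological replicates of 1 group. Both replicates were whole young adults of strain OP765, aged 64 hours and synchronised by starving first-stage larvae after bleaching. The strain carries the integrated transgene wgIs765, an added copy of aptf-3 fused to TY1, EGFP and 3xFLAG with unc-119(+), in the unc-119(tm4063) background, and the precipitation used an antibody to GFP. Chromatin was sonicated to 200 to 800 bp. Whole animals mix all tissues, both replicates come from the same strain, and no second factor, stage or control list was analysed here, so the values describe peaks at these genes and not a change between conditions.

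RNA polymerase I transcribes the large ribosomal RNAs, polymerase II transcribes messenger RNAs and many small nuclear RNAs, and polymerase III transcribes transfer RNAs and other short RNAs. TFIID, built from the TATA-binding protein and its associated factors (TAFs), marks the polymerase II start site, and Mediator carries signals from bound transcription factors to polymerase II. Integrator cleaves small nuclear RNAs and ends transcription early at many other genes. AP-2 factors bind DNA as dimers at a GC-rich palindrome, and in C. elegans the related gene aptf-1 is known for its role in a sleep-active neuron.

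Of the 76 genes, 7 had a summit of the main peak list between 1000 bp upstream of their 5′ end and their 3′ end, which is 9.21% of them against 3.05% of all protein-coding genes. The main list holds 785 peaks thresholded by the authors on the irreproducible discovery rate (IDR), a measure of how repeatable a peak's rank is. IDR was not the whole selection: per the file headers the thresholded lists also derive from a further file, not analysed here, and 63 of the 848 ranked peaks that met their IDR limit were not in the main list. The 7 genes were mdt-26 and mdt-4 of Mediator, ints-8 of Integrator, taf-9 and taf-11.3 of TFIID, rpc-2 of polymerase III and rpoa-2 of polymerase I, each with 1 summit. No gene of polymerase II (7 genes), of the subunits shared between polymerases (7) or of the Mediator kinase module (4) had one. These groups are small beside a share of 3.05% over all genes. In the conservative list of 675 peaks, 5 genes had a summit (6.58% against 2.74% of all genes), of which 4 were in common with the main list and the fifth was ama-1. The replicates' own lists are shorter. Replicate 1, with 178 peaks, had summits at ints-8, mdt-26, mdt-4 and taf-11.3 (5.26% against 0.731%), and replicate 2, with 241 peaks, had them at ints-8 and mdt-26 (2.63% against 0.991%). The genes' merged windows spanned 0.472 Mb and held 14.8 main-list summits per Mb, against 7.60 per Mb over the merged windows of all protein-coding genes. These are counts over 1 group, and with so few summits a single one moves a share visibly.

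**Figure D1:**
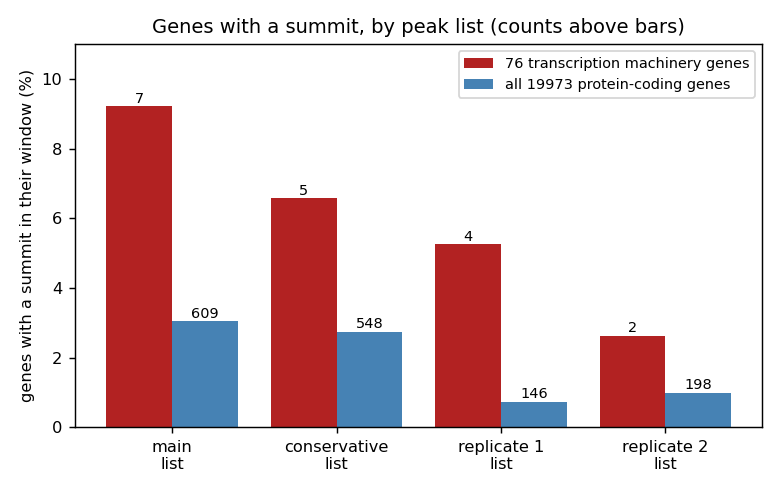
Percentage of genes with a peak summit in their window (y axis) for each of 4 peak lists (x axis), for the 76 transcription machinery genes (red) and all 19973 protein-coding genes (blue), with the number of genes above each bar. The red bars stand at 9.21%, 6.58%, 5.26% and 2.63%, above the blue bar in each list.

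The strongest peak of the whole set lay in mdt-26 (WBGene00016115), which encodes the worm counterpart of MED26, the subunit that in human cells links Mediator to elongation factors. Its signal was 106 in replicate 1 and 146 in replicate 2, and 251 in the main list, where it ranked 9 of 785. The signal is the authors' peak value in units defined neither in the labels nor in the files. Both replicates were far above their median highest signal at these genes, 22.3 and 22.7, and placed the site within 12 and 30 bp of the main summit. The peak spanned 129 bp at chrII:5661687-5661815 (ce11), and its summit lay 608 bp into the gene, 8 bp inside a 386 bp intron. It held no soft-masked bases, the annotation of repeats, and the nearest annotated noncoding RNA gene was 12097 bp away. The second Mediator site was in mdt-4 (WBGene00007012), for MED4, a subunit of the middle module. Its signal was 62.6 in replicate 1 and 41.2 in replicate 2, and 104 in the main list (rank 122 of 785), and it passed into the thresholded list of replicate 1 only. The peak was at chrII:4942447-4942742 and extended beyond a 283 bp intron that held its summit, 41 bp from the nearest exon. The summit was 76 bp upstream of the snoRNA gene ZK546.18, which lies on the same strand as mdt-4. The protein-coding gene ZK546.19, on the opposite strand, ends at chrII:4942499, within the peak. Its 5′ end was 869 bp from the summit, nearer than that of mdt-4, at 1354 bp. The bases within 100 bp of each summit are shown on the gene's strand, with the summit at position 101. For mdt-26 (chrII:5661689-5661889, plus strand) the capitals mark the 72 annotated coding bases that precede the intron, and for mdt-4 (chrII:4942495-4942695, minus strand) they mark matches to the polymerase III promoter elements box A and box B.
mdt-26: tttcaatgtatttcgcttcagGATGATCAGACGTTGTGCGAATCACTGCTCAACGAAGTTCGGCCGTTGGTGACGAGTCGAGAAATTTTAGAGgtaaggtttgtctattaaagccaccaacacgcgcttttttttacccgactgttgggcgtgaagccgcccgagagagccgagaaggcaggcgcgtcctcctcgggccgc
mdt-4: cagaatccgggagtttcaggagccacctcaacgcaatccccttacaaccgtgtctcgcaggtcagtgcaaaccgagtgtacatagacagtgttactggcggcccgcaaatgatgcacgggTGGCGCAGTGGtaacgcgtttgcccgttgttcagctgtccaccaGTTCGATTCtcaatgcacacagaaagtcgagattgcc

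In the mdt-4 sequence, box A (TGGC, any pair of bases, AGTGG) matched as TGGCGCAGTGG at positions 121 to 131 and box B (GTTCGANTC) as GTTCGATTC at positions 165 to 173, with 33 bases between them. Box A ended 46 bp and box B 4 bp upstream of the annotated start of ZK546.18. Within 100 bp of a summit and on both strands, box A occurred at 35 of the 785 main-list summits (4.46%) and at 355 summits of the ranked list behind it (0.356%). Box B occurred at 68 (8.66%) and 866 (0.868%), and both elements on one strand at 10 (1.27%) and 90 (0.0902%). mdt-4 was the 1 summit of the 7 with either element. The AP-2 palindrome GCCNNNGGC was found at 0 of the 7 summits, against 32 of 785 in the main list (4.08%) and 1560 in the ranked list (1.56%). A match to these letters is a description of the sequence and does not show what is bound there.

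The other Mediator core genes had no main-list summit. mdt-8, a subunit of the head module, came nearest, with a signal at its strongest site of 33.9 in replicate 1, 30.4 in replicate 2 and 67.8 in the ranked list, in an intron 885 bp from its 5′ end and 637 bp from a snoRNA gene. mdt-22, another head subunit, had 36.2 and 25.4 in the replicates and 59.3 in the ranked list at a site at -56 bp from its 5′ end. At the other end was mdt-30, with a highest ranked signal of 14.0, no ranked peak in replicate 1 and a highest of 28.2 anywhere in the window in replicate 2. The 20 Mediator core genes with any ranked peak, of 21, had a median highest signal of 39.6. The exception, mdt-19, had no peak in its window in the ranked list or in that of either replicate. The 4 kinase module genes, which encode a separable part of Mediator that phosphorylates polymerase II and transcription factors, fell in a narrower range of 43.4 to 57.6. The highest was the kinase cdk-8 itself, with 36.7 at that site in replicate 2 and, in replicate 1, no peak within 100 bp of it and a highest of 21.7 elsewhere in the window. The lowest was its cyclin cic-1, with 20.5 and 20.4 at its site.

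Among polymerase II genes the site nearest to the threshold was in ama-1 (WBGene00000123), for the largest subunit, the target of the mushroom toxin alpha-amanitin. Its signal was 29.0 in replicate 1, 41.3 in replicate 2 and 66.9 in the ranked list. The −log10 of its IDR was 1.95 in the main set and 2.03 in the conservative set, either side of the limit of 2 that every peak of these genes in the main list met. The peak, at chrIV:4255053-4255348, lay in coding sequence 7131 bp from the 5′ end of a gene whose window was 11.1 kb long. In polymerase III the summit was in rpc-2 (WBGene00017300), for the second largest subunit, which forms part of the active site. Its site had a signal of 38.4 in replicate 1 and 26.5 in replicate 2, and 69.1 in the main list (rank 572 of 785). The summit lay 64 bp from the annotated 5′ end, in the first coding bases, at chrIII:5557281-5557576. Elsewhere in the window replicate 2 reached 30.7. The gene hach-1, on the same strand, ends at chrIII:5557318, within the peak. The site was absent from both replicate lists and, with a −log10 IDR of 1.73, from the conservative list. The bases around both summits are shown because both lie in exons, 1 at the start codon and 1 deep in the gene, with coding bases in capitals. The stretch of rpc-2 (chrIII:5557329-5557529, plus strand) includes the start codon at position 37, and that of ama-1 (chrIV:4255101-4255301, plus strand) is coding throughout.
rpc-2: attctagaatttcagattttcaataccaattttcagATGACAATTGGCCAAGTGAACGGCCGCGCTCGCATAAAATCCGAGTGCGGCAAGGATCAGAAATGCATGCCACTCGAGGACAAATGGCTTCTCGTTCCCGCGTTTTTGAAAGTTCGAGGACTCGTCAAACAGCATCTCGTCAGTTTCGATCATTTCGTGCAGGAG
ama-1: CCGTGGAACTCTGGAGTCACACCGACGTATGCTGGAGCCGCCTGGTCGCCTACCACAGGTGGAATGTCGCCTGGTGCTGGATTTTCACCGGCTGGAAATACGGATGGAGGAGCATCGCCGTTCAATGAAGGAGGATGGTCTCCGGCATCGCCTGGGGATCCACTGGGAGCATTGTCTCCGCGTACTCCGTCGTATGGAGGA

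The remaining polymerase II and III genes had lower signals. The lowest in polymerase II was rpb-11, at 20.1, with 14.6 in replicate 1 and no ranked peak in replicate 2, and the 7 genes had a median of 36.7. In polymerase III the lowest was rpc-11, a small subunit involved in RNA cleavage in yeast, at 17.5, with 11.9 and 9.48 at that site in the replicates. The 7 subunits shared between polymerases had the lowest median signal of the 8 role groups, 29.2, and the shortest windows (median 1.64 kb). Their highest was rpac-19, common to polymerases I and III, at 61.3, with 46.3 at that site in replicate 2 and, in replicate 1, no peak within 100 bp of it and a highest of 20.7 elsewhere in the window. Their lowest, rpb-8, common to all 3 polymerases, had 12.6, the lowest value of any of the 70 genes with a ranked peak.

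Both TFIID sites had signals in the lower part of the main list. taf-9 (WBGene00006391), for a histone-fold TAF, had 33.4 in replicate 1 and 29.7 in replicate 2, and 63.7 in the main list (rank 693 of 785). Its summit lay 80 bp from the 5′ end in the first coding exon, at chrIII:13624208-13624503, and was in neither replicate list nor the conservative list. The gene mlc-5, on the same strand, ends upstream of taf-9 at chrIII:13624170. taf-11.3 (WBGene00006395), 1 of 3 taf-11 genes, had 39.8 in replicate 1, 37.4 in replicate 2 and 62.7 in the main list (rank 705 of 785), and was kept in the conservative list and, at rank 173 of 178, in that of replicate 1. The replicates placed this site on opposite sides of the main summit, at offsets of -97 and 89 bp. The peak, at chrIII:10505920-10506215, was upstream of the gene at -818 bp, and the summit lay between urm-1 and sip-1, 588 bp from the 5′ end of the former and 733 bp from that of the latter. Both 5′ ends were nearer to the summit than that of taf-11.3, but the summit was not upstream of either neighbour. It lay past the 3′ ends of both, which are at 10505899 for urm-1 and 10506106 for sip-1. The summit was also upstream of the protein-coding gene sly-1, at -990 bp, and of the noncoding RNA gene F43D9.8, at -611 bp. The sequence at taf-9 (chrIII:13624256-13624456, plus strand), with the 144 coding bases in capitals, shows how closely the summit follows the start codon at position 29.
taf-9: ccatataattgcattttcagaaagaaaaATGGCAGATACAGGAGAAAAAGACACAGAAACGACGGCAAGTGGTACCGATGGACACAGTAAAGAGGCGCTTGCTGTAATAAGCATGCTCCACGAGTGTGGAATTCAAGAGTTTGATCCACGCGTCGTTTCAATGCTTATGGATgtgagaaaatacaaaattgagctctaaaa

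Although 14 of the 18 TBP and TAF genes had a ranked peak, those that did had a median highest signal of 50.3, the second highest of the role groups after polymerase I. taf-12, another histone-fold subunit, had 57.0, with 20.3 at the same site in replicate 1 and 37.5 in replicate 2. taf-2, a subunit that contacts promoter DNA around the start site, also had 57.0, with 27.6 and 26.6. tbp-1, for the TATA-binding protein and named for its role after the values were seen, was among the low genes, at 26.1, with highest window signals of 24.4 and 14.2 in the replicates. taf-1, for the largest TAF, had the lowest value, 15.5, although its window of 27.2 kb was among the longest. Its window held 3 ranked peaks, and 68.7% of its bases were soft-masked, against a median of 33.2% over the 76 genes. The genes without a ranked peak were taf-7.1, taf-7.2, taf-11.1 and taf-13. Of these, taf-7.1 and taf-7.2 had none in either replicate, whereas replicate 1 had a peak of 27.3 at taf-11.1 and of 16.2 at taf-13.

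**Figure D2:**
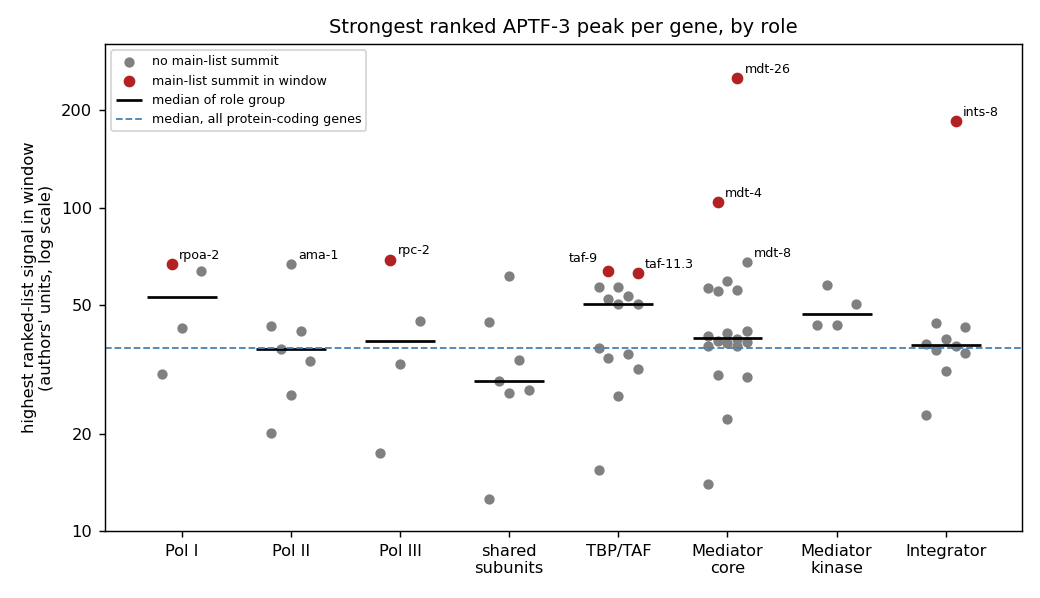
Highest signal of any ranked peak in each gene's window (y axis, authors' units, log scale) by role (x axis), 1 point per gene, for the 70 genes with a ranked peak. Red points are the 7 genes with a main-list summit, black bars the group medians (29.2 to 53.1) and the dashed line the median of all protein-coding genes, 36.9. mdt-26, ints-8 and mdt-4 stand above 100 and the other genes below 70.

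The polymerase I site was at rpoa-2 (WBGene00008781), for the second largest subunit. Its signal was 30.6 in replicate 1 and 34.6 in replicate 2, and 66.8 in the main list (rank 631 of 785). The peak, at chrI:9287110-9287405, lay upstream at -682 bp, and its summit was 185 bp upstream of the divergent gene prom-1, nearer to that gene than to rpoa-2. Of its bases 56.1% were soft-masked. It was in neither replicate list and, at a −log10 IDR of 1.94, not in the conservative list. rpoa-1, for the largest subunit, had 27.9 and 35.6 in the replicates and 63.8 in the ranked list at a site in an intron 20614 bp from the 5′ end, and its window of 25.2 kb held 31 ranked peaks. The lowest of the 4 genes was rpoa-12, at 30.6, with 18.6 in replicate 1 and no ranked peak in replicate 2.

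Integrator contributed the second strongest site, in ints-8 (WBGene00013021), whose human counterpart helps tether a phosphatase to the complex. The signal was 74.0 in replicate 1 and 108 in replicate 2, and 185 in the main list (rank 16 of 785), and the summits of the replicates lay within 1 bp of the main one. The peak, at chrI:13463836-13464131, was 6387 bp from the 5′ end of ints-8 in a 2023 bp intron. The summit lay inside rpr-1, the RNase P RNA gene on the opposite strand, 29 bp from its 5′ end. ChIP fragments cannot tell the host gene from the RNA gene inside it. The other Integrator genes with a ranked peak ranged from 22.9 at ints-1, the scaffold subunit (highest in the window 22.2 in replicate 1 and 16.5 in replicate 2), to 43.9. ints-4 had none in the ranked list, and 14.2 in replicate 1, in a window of 12.6 kb of which 58.1% was soft-masked.

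**Figure D3:**
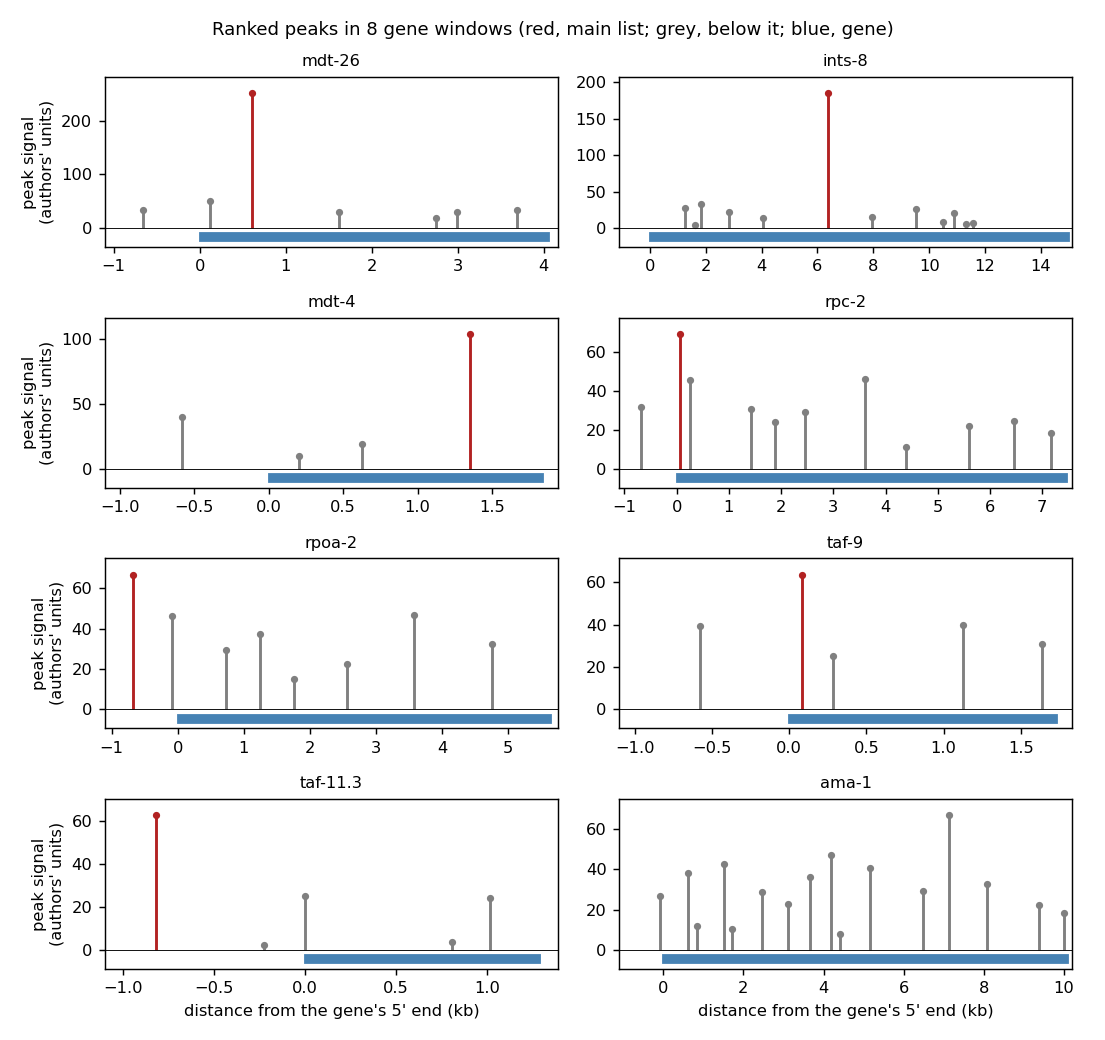
Signal of every ranked peak (y axis, authors' units) against its distance from the gene's 5′ end (x axis, kb) in 8 gene windows, with the gene as a blue bar, main-list peaks in red and other ranked peaks in grey. The red peaks of mdt-26, ints-8 and mdt-4 stand well above all others in their windows, as does that of taf-11.3, at 62.7 against 25.2 for the next. Those of rpc-2, rpoa-2 and taf-9, at 63.7 to 69.1, are nearer in height to the others.

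The 7 sites thus formed 3 levels of replicate evidence. The sites in mdt-26 and ints-8 overlapped a peak in both replicate lists (28.6%, against 94 of the 785). Those in mdt-4 and taf-11.3 did so in that of replicate 1 only (28.6%, against 75 of the 785, with 123 in that of replicate 2 only). Those in rpc-2, rpoa-2 and taf-9 did so in neither (42.9% against 62.8%). The median signal of the 7 was 69.1, against 76.6 for the whole main list. The median GC content was 46.3% in both. 1 of the 7 lay within 100 bp of a tRNA, snoRNA or snRNA gene (14.3%), against 197 of 785 (25.1%). These gene types leave out the RNase P RNA gene rpr-1, which held the ints-8 summit. Of the 7 peaks, 1 was at least 50% soft-masked (14.3% against 12.6%).

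Below the thresholded lists, the much longer ranked list behind the main list had a summit in the window of 70 of the 76 genes (92.1%), against 83.8% of all protein-coding genes. A ranked peak was therefore present at most genes of any kind. The 70 highest signals had a median of 39.6 and a range of 12.6 to 251, against a median of 36.9 for all genes. In the replicates the medians were 22.3 (n = 70 genes) and 22.7 (n = 65 genes), against 20.5 and 21.3. Of the 478 ranked peaks in the windows, 7 reached a −log10 IDR of 2, and all 7 were in the main list. Another 7 lay between 1.5 and 2, and 449 were under 1. The 2 just inside were rpoa-2 at 2.08 and rpc-2 at 2.13, and those just outside were ama-1 at 1.95, mdt-8 at 1.73, rpac-19 and cdk-8 at 1.68, taf-12 at 1.54 and taf-2 with peaks at 1.70 and 1.52. Median signal over all ranked peaks in the windows was 21.8, against 21.9 over all genes, and the peaks numbered 1014 per Mb against 1060.

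The highest ranked peak of a gene was in a coding exon in 27 of 70 genes, upstream in 25 and in an intron in 14. In 2 genes each it was in a 5′ or 3′ UTR. Over all genes with a ranked peak it was upstream in 4784 of 16742. The other classes were not counted over all genes, so whether their order is particular to these genes cannot be told. It fell between 1000 bp upstream and 200 bp downstream of the 5′ end in 33 genes (47.1%, against 37.2% of all genes with a ranked peak), and within 200 bp of the 5′ end in 12 (17.1% against 14.2%). Both replicates had a ranked summit within 100 bp of it in 45 genes (64.3% against 59.8%), 1 replicate in 21 and neither in 4. In the 62 genes with a ranked peak in both replicates, the highest signal was greater in replicate 1 in 33 and in replicate 2 in 29, whereas over all genes with both it was greater in replicate 1 in 7094 and in replicate 2 in 8182. Spearman's rho between the replicates was 0.530 across these genes and 0.416 across 15276 protein-coding genes. These values describe genes that share the same libraries and differ in window length, and carry no test.

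**Figure D4:**
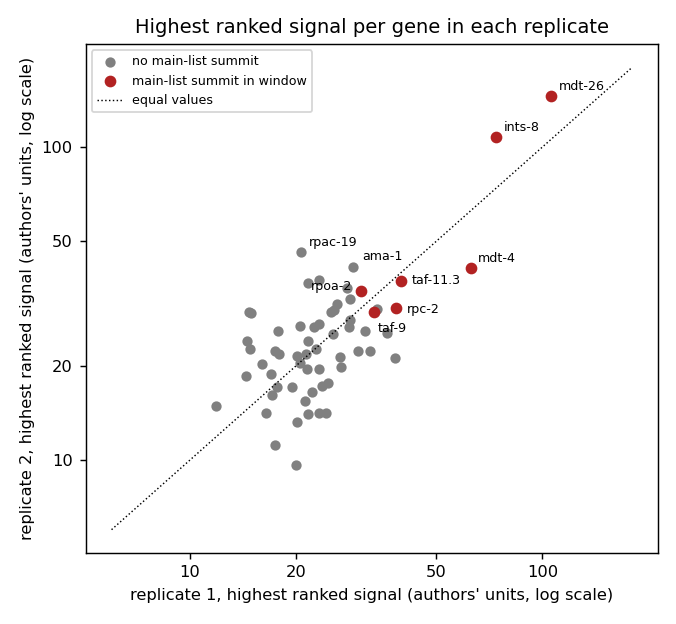
Highest ranked signal in each gene's window in replicate 1 (x axis) and replicate 2 (y axis), both in the authors' units on log scales, for the 62 genes with a peak in both, with the line of equal values dotted. mdt-26 and ints-8 stand apart in both replicates, mdt-4 in replicate 1, and the other 4 red genes lie among the higher grey points.

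Window length bears on both measures, and the windows of these genes were longer, with a median of 4.24 kb against 3.03 kb. Among windows up to 2.5 kb, 1 of 24 genes had a main-list summit (4.17%, against 2.07% of all genes of that length). Between 2.5 and 5 kb it was 2 of 15 (13.3% against 2.65%), between 5 and 10 kb 3 of 23 (13.0% against 4.58%), and above 10 kb 1 of 14 (7.14% against 7.46%). The share was thus above that of all genes in 3 of the 4 length classes, each on 1 to 3 genes. The median highest signals in the same classes were 33.7, 41.5, 43.6 and 43.5, against 32.2, 36.3, 41.7 and 47.6. Across the 70 genes, signal and window length had a Spearman's rho of 0.286, and across all genes 0.339.

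**Figure D5:**
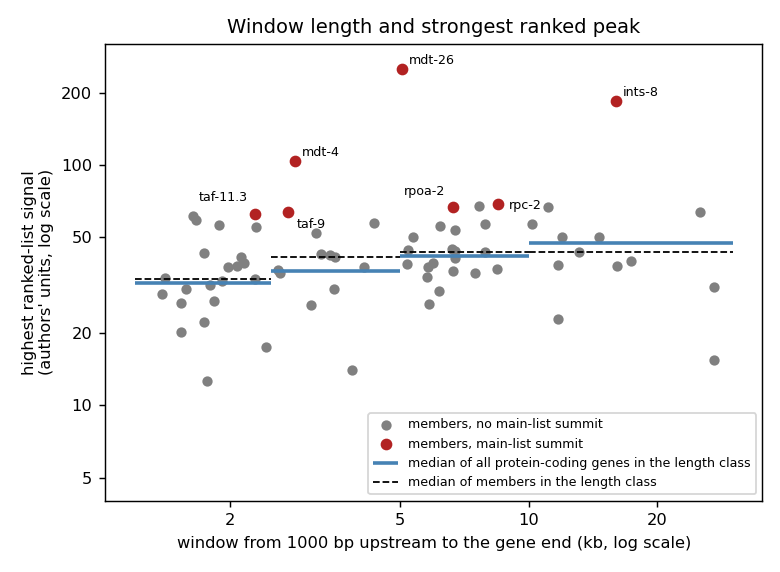
Highest ranked signal (y axis, authors' units, log scale) against window length (x axis, kb, log scale) for the 70 genes with a ranked peak, with the median of all protein-coding genes (blue) and of these genes (dashed) in 4 length classes. Both medians are higher in long windows than in the shortest class, and mdt-26, ints-8 and mdt-4 stand far above the median of their class.

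Factors that work beside these complexes were read in the same windows, from lists of 66 symbols of which 62 were found in the annotation. Of the 62, 4 had a main-list summit (6.45%, against 3.05% of all genes), and the median highest signal was 41.1. None of the 18 general initiation factors, none of the 10 SNAPc and polymerase III factors and not the Mediator gene let-49 had one. Of 16 elongation factors, cdk-12, a kinase of the polymerase II tail, had a summit of signal 70.9 in its 3′ UTR, in neither replicate list. The other 3 were among 17 factors of 3′ end formation and termination. cfim-2, a cleavage factor subunit, had a summit of signal 102 in an intron, 60 bp from the snoRNA gene D1046.6 and in the list of replicate 1. xrn-2, the exonuclease that helps to end transcription, had a summit of signal 101 at -8 bp from its 5′ end, in the list of replicate 1. suf-1, a cleavage stimulation factor subunit, had one of signal 64.0 at -109 bp, and it was the 1 summit of the 4 in both replicate lists.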

How the data were processed

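The deposited files were 8 peak lists in ce11 coordinates, per the file headers. Each replicate, the IDR set and the conservative set had 1 ranked and 1 thresholded list. The signal of a peak is the authors' own deposited value, on a scale that neither labels nor files define, and the ranked lists also give the −log10 global IDR deposited by the authors. The aligner and the caller, not given in the sources used here, are unnamed. Read depth is unknown, so no counting interval could be set. The 16 single-input columns of the series' ranked lists were left out.

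Genes came from the Ensembl release 115 annotation of WBcel235. A gene's window ran from 1000 bp upstream of its 5′ end to its 3′ end, and a peak was counted by its summit. Replicate peaks matched main-list peaks by an overlap of at least 1 bp, and ranked peaks by summits within 100 bp. Counting was tested on simulated peaks and run with Python 3.11.15, pandas 2.3.3, numpy 2.4.6 and scipy 1.17.1. With 1 group, no test was made. Named genes were those with a thresholded peak, the 15 highest in ranked signal, the highest and lowest of each role group and those with no ranked peak, with tbp-1 and ints-3 added after their values were seen. The genes and lists were chosen with earlier results of these data known, and box A, box B and all printed sequences but that of mdt-26 were chosen after the values were seen. Counts were repeated with the conservative list, with either replicate's list, in the upper 50% of peaks, over other windows, by nearest gene, with other overlap rules, and without summits in repeats or close to small RNA genes. Positions are 1-based.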

Additional observations from a re-analysis of the deposited data

How the results depend on the processing

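The 7 genes with a main-list summit became 2 to 4 when a single replicate's list was used (leaving out the other replicate), 3 in the upper 50% of peaks by signal (ints-8, mdt-26 and mdt-4), 4 in the window from 1000 bp upstream to 200 bp downstream (rpc-2, rpoa-2, taf-11.3 and taf-9) and 4 when each summit was given to its nearest protein-coding gene only (ints-8, mdt-26, rpc-2 and taf-9). The background moved too, to 1.62%, 1.49% and 2.09% of all genes in the last 3. Under the conservative list, 500 bp or 2000 bp upstream and gene bodies only, the count was 5, 5, 8 and 5, against 2.74%, 2.58%, 3.98% and 1.84% of all genes. Without summits near tRNA, snoRNA or snRNA genes it was 6 (7.89% against 2.35%), without those near any noncoding RNA gene, an alternative chosen after seeing the data, 5 (6.58% against 2.15%), and without peaks of 50% or more soft-masked bases 6 (7.89% against 2.77%). The median highest signal of 39.6 became 39.2 in the conservative ranked list, 32.3 in the promoter window (27.5 for all genes) and 37.6 in gene bodies (34.7 for all genes). In single replicates it was 22.3 to 22.7, on each replicate's own scale. The count of 2 summits in both replicate lists was 2 under both other matching rules. The cause of these shifts was not tested. No paired analysis was possible because there was 1 group.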

Other observations

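Among the genes with the longest windows, ints-3 (named after its values were seen) and taf-1, each with a window of 27.2 kb, held 4 and 3 ranked peaks and were 64.2% and 68.7% soft-masked, whereas rpoa-1, with 25.2 kb and 48.5%, held 31. Of the 6 genes without a ranked peak, mdt-19, taf-7.2 and ints-4 had windows that were 70.2%, 63.9% and 58.1% soft-masked, and taf-11.1, taf-7.1 and taf-13 had 23.4%, 27.6% and 34.8%. The part of repeats in these counts was not tested.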
